A study of Homo sapiens with 6 samples.

Results

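The oxidative phosphorylation subunits described here are 36 nuclear-encoded proteins of respiratory chain complexes I to IV, taken by gene symbol from a fixed list and read in human umbilical vein endothelial cells (HUVECs) in which the long noncoding RNA ANRIL was targeted. Of the 36, 32 had a probe set annotated with exactly 1 gene symbol, and these 32 are among the 19775 genes tested. NDUFA4, now named COXFA4, was found under its current symbol. NDUFS8 and UQCRH were read only by probe sets that carry several symbols, and SDHB and UQCRFS1 are not listed in the probe table used here, so these 4 were not analysed. By complex, 15 of 16 subunits of complex I were measured, 3 of 4 of complex II, 5 of 7 of complex III and 9 of 9 of complex IV, where NDUFA4 is placed because it is now known as a subunit of cytochrome c oxidase.

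HUVECs are primary endothelial cells of the umbilical cord vein. They were transiently transfected with an siRNA specific for ANRIL (3 arrays) or with a scrambled control siRNA (3 arrays), with the same non-liposomal reagent and in the same growth factor-supplemented medium in both groups. The labels do not say whether the 3 samples of a group came from separate donors or cultures, so p-values measure only the spread between these samples, which may be technical. The comparison asked which transcripts differ in level once ANRIL is targeted. The ANRIL siRNA is shown because it is the agent tested, in lower case with bases 2 to 8 of the antisense strand in capitals. Whether these bases act as the seed of the siRNA in the cells was not tested.
Sense strand: ggauaugugccaugaguaagaauaa
Antisense strand: uUAUUCUUacucauggcacauauccau

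The respiratory chain sits in the inner mitochondrial membrane. Complex I takes electrons from NADH and complex II from succinate, both pass them through ubiquinone to complex III, cytochrome c carries them to complex IV, and complex IV reduces oxygen. Complexes I, III and IV pump protons, and ATP synthase uses the resulting gradient. Most subunits are encoded in the nucleus and a few in mitochondrial DNA. Endothelial cells are known for relying largely on glycolysis for ATP, with mitochondria that also serve in signalling and biosynthesis.

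Signals are RMA log2 intensities as deposited, and each difference is the mean log2 signal with ANRIL siRNA minus that with control siRNA. Across probe sets, arrays of different groups correlated at r = 0.9964 to 0.9974 and arrays of the same group at 0.9971 to 0.9977. The ANRIL gene itself, CDKN2B-AS1, was read near the floor of the array, at percentile 4.62 of all genes, with log2 values of 3.69, 4.05 and 4.05 with ANRIL siRNA, against 4.08, 4.05 and 3.95 with control siRNA (difference −0.10 ± 0.10 SE, limma adjusted p = 0.606), and gave no check of the knockdown. The 8 endothelial markers, among them PECAM1, CDH5 and VWF, lay at percentiles 78.2 to 99.2 of all genes. Leukocyte markers lay at 7.90 to 55.6, epithelial markers at 8.82 to 43.8, smooth muscle and pericyte markers at 21.6 to 56.2 and fibroblast markers at 1.44 to 78.1, the last being COL1A1. Precision is limited by there being only 3 arrays a group.

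All 32 subunits were strongly expressed, and 31 of them lay slightly lower with ANRIL siRNA. Their mean log2 signals ran from 10.02 for NDUFS1 to 13.58 for COX7C, which is percentile 84.0 to 99.3 of all genes. The median difference over the 32 was −0.07, and the largest, that of UQCRC1, was 1.16-fold lower. No subunit passed the threshold, an adjusted p under 0.05 over all 19775 genes (limma, Benjamini-Hochberg). The smallest adjusted p among subunits was 0.193, and percent called over all genes was 0%. At an unadjusted p under 0.05, 4 of 32 subunits (12.5%) were lower and 0 were higher, where 8.16% of all genes were lower and 9.83% higher. Among the other genes of the brightest decile of mean signal, 15.6% were lower and 0.256% higher. The 95% intervals of the 32 differences reached down to −0.38 (1.302-fold lower) and up to 0.14 (1.10-fold higher).

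Bright genes in general lay lower by a like amount. In the brightest decile of mean signal, 87.6% of the 1950 genes other than the subunits lay below 0, with a median of −0.07, while over all genes 51.3% lay below 0, with a median of −0.0046. For each subunit the 500 other genes nearest in mean signal were taken as genes of like brightness. Their medians ran from −0.08 to −0.04, and 82.4% to 91.4% of them lay below 0. Against the median of its own 500 genes, 15 subunits lay lower and 17 higher, and the median departure was 0.01.

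**Figure D1:**
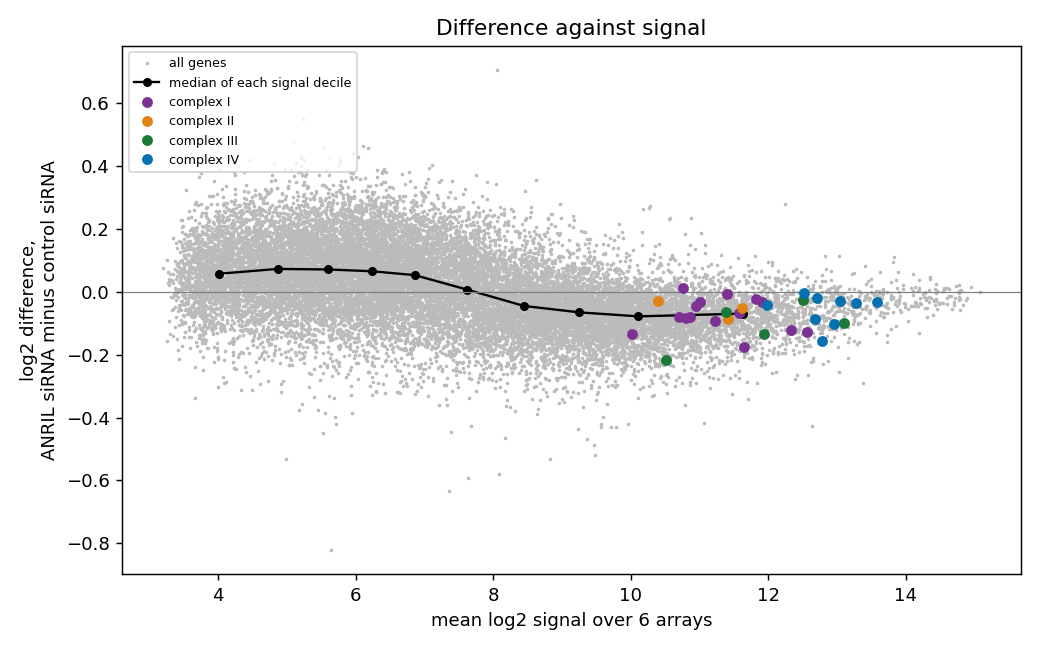
Log2 difference (ANRIL siRNA minus control siRNA) against mean log2 signal of 19775 genes, in grey, with the 32 subunits coloured by complex and the median of each signal decile as a black line. The subunits lie at the bright end, around the median line, which is at −0.07 in the brightest decile.

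The arrays of a group differed among themselves by as much as the groups did. Relative to each subunit's mean over the 6 arrays, the median over the 32 was −0.06, 0.04 and −0.08 in the 3 ANRIL siRNA arrays, against −0.0048, 0.05 and 0.05 in the 3 control arrays. ANRIL siRNA replicate 2 thus lay with control replicates 2 and 3, and control replicate 1 lay between the groups. ANRIL siRNA replicate 3 was the lowest array for 21 of the 32 subunits, and control replicate 2 the highest for 15. The median difference of the 32 was −0.10 when ANRIL siRNA replicate 2 was left out. With replicate 3 of that group left out it was −0.04, and 25 of 32 lay below 0. The SD between arrays was larger with ANRIL siRNA than with control siRNA for 25 of 32 subunits (median SD 0.07 for ANRIL siRNA, 0.04 for control siRNA). The other genes of the brightest decile had medians of −0.04, 0.01 and −0.07 in the ANRIL siRNA arrays and of 0.02, 0.06 and 0.02 in the control arrays.

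**Figure D2:**
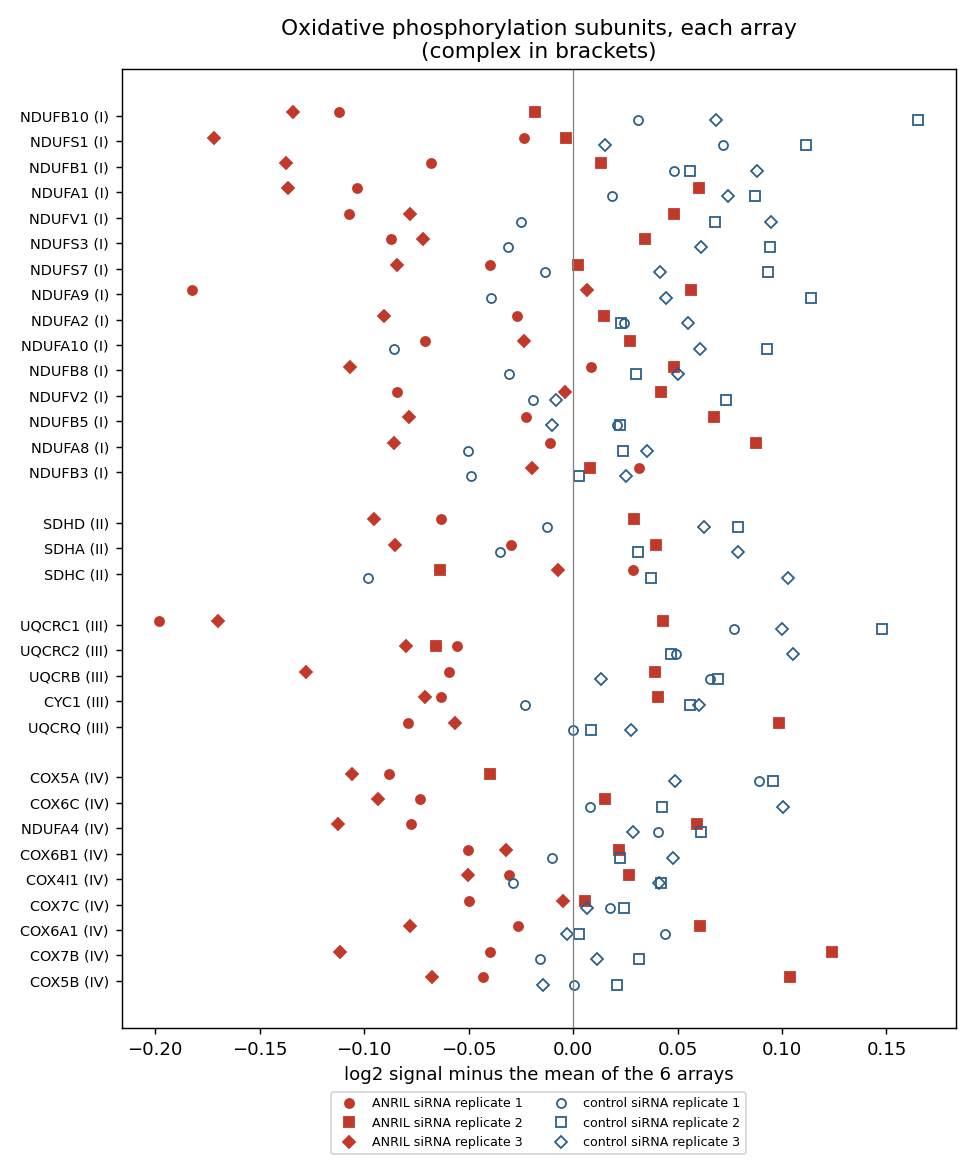
Log2 signal of each of the 32 subunits in each array, minus the mean of the 6 arrays; filled red symbols are ANRIL siRNA arrays and open blue symbols control siRNA arrays, with 1 symbol shape per replicate number. ANRIL siRNA replicates 1 and 3 lie to the left for most subunits, and ANRIL siRNA replicate 2 lies among the control arrays for many.

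The ANRIL siRNA and control siRNA values were fully separate for 8 subunits, all lower with ANRIL siRNA (NDUFA2, NDUFB1, NDUFB10, NDUFS1, UQCRC1, UQCRC2, COX5A and COX7C). That is 25% of the 32, where 12.8% of all genes and 36.1% of the other genes in the brightest decile were lower without overlap. For 0 subunits did the groups separate the other way, where the share was 10.6% over all genes and 1.13% over the other genes of the brightest decile.

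Complex I is the largest complex of the chain. Its subunits are core proteins, among them those that carry the flavin and the iron-sulfur clusters, or accessory proteins around the core. Of its 15 measured subunits 14 lay below 0 (median −0.08), and none passed. NDUFB10, an accessory subunit of the membrane arm, had the smallest p. Its log2 values were 11.54, 11.63 and 11.52 with ANRIL siRNA, against 11.68, 11.81 and 11.72 with control siRNA, so the groups did not overlap. Its difference of −0.18 had an SE of 0.06 over 3 arrays a group, as the ± of each difference gives, and a 95% interval of −0.32 to −0.03 (adjusted p = 0.209, limma). Its second probe set, also bright, differed by −0.06 ± 0.07.

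NDUFB1, another accessory protein of the membrane arm and the subunit of complex I with the brightest probe set, had log2 values of 12.49, 12.57 and 12.42 with ANRIL siRNA, against 12.61, 12.62 and 12.65 with control siRNA. The groups did not overlap, and the difference was −0.13 ± 0.06 (adjusted p = 0.308, limma). NDUFS1, the iron-sulfur core subunit that receives electrons early in the chain of clusters, had values of 9.998, 10.02 and 9.85 with ANRIL siRNA, against 10.09, 10.13 and 10.04 with control siRNA (difference −0.13 ± 0.07, adjusted p = 0.323, limma). Of its 5 probe sets 3 lay below 0 and 2 above, and all but the brightest were dim. The 2 above 0 lay at 0.05 ± 0.07 and 0.09 ± 0.08. NDUFB3, an accessory subunit, was the only one of the 32 above 0. Its values were 10.80, 10.77 and 10.74 with ANRIL siRNA, against 10.71, 10.77 and 10.79 with control siRNA, which overlap throughout (difference 0.01 ± 0.06).

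Among the other core subunits of complex I, NDUFV1, which binds NADH and the flavin, differed by −0.09 ± 0.07. NDUFS3 and NDUFS7, of the arm that leads to ubiquinone, differed by −0.08 each, and NDUFV2, an iron-sulfur partner of NDUFV1, by −0.03. The accessory subunits NDUFA1 (−0.12 ± 0.07), NDUFA9 (−0.08), NDUFA2 (−0.07), NDUFA10 (−0.05), NDUFB8 (−0.03), NDUFB5 (−0.02) and NDUFA8 (−0.0059) made up the rest. Core and accessory subunits were thus mixed along the order of differences, and the smallest adjusted p among these was 0.372 (NDUFA1, limma).

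Complex II is succinate dehydrogenase, which also belongs to the citrate cycle, and no subunit of it is encoded in mitochondrial DNA. Its 3 measured subunits lay below 0 (median −0.05), and for each the groups overlapped. SDHA, the flavoprotein that oxidises succinate, had log2 values of 11.59, 11.66 and 11.54 with ANRIL siRNA, against 11.59, 11.65 and 11.70 with control siRNA (difference −0.05 ± 0.06). SDHD, a membrane anchor, had values of 11.36, 11.45 and 11.33 with ANRIL siRNA, against 11.41, 11.50 and 11.49 with control siRNA (difference −0.09 ± 0.06). SDHC, the other anchor, had 10.43, 10.34 and 10.40 with ANRIL siRNA, against 10.31, 10.44 and 10.51 with control siRNA (difference −0.03 ± 0.07). The ANRIL siRNA values of SDHC lay inside the range of its control values.

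Complex III, the cytochrome bc1 complex, had the lowest median of the complexes (−0.10, 5 of 5 below 0). UQCRC1 and UQCRC2 encode its core proteins, which face the matrix. UQCRC1 had log2 values of 10.31, 10.55 and 10.34 with ANRIL siRNA, against 10.59, 10.66 and 10.61 with control siRNA. ANRIL siRNA replicate 2 lay well above the other arrays of its group and close to the lowest control array. Its difference of −0.22 ± 0.07 had a 95% interval of −0.38 to −0.05 (adjusted p = 0.193, limma), and 5.2% of the 500 genes of like brightness lay lower. UQCRC1 was read by 1 probe set.

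UQCRC2 had log2 values of 11.89, 11.88 and 11.87 with ANRIL siRNA, against 12.00, 11.99 and 12.05 with control siRNA, and both groups were tight and apart. The difference was −0.13 ± 0.06 (adjusted p = 0.255, limma). Its second bright probe set also had no overlap (−0.17 ± 0.06, adjusted p = 0.272 over all probe sets), while a dim one lay at 0.18 ± 0.14. UQCRB, a small subunit near the ubiquinone site, had 13.04, 13.14 and 12.97 with ANRIL siRNA, against 13.17, 13.17 and 13.12 with control siRNA (difference −0.10 ± 0.06). CYC1, cytochrome c1, differed by −0.06 and UQCRQ, a small subunit, by −0.02.

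Complex IV, cytochrome c oxidase, held the brightest subunit and had the median nearest to 0 (−0.04, 9 of 9 below 0). COX5A, a subunit on the matrix side, had log2 values of 12.70, 12.75 and 12.68 with ANRIL siRNA, against 12.88, 12.88 and 12.84 with control siRNA, with no overlap. Its difference of −0.16 ± 0.06 had a 95% interval of −0.28 to −0.03 (adjusted p = 0.21, limma). Its dim second probe set lay at 0.03 ± 0.08. COX6C, a small membrane subunit, had 12.89, 12.98 and 12.87 with ANRIL siRNA, against 12.97, 13.01 and 13.06 with control siRNA (difference −0.10 ± 0.06).

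NDUFA4 had log2 values of 12.61, 12.75 and 12.57 with ANRIL siRNA, against 12.73, 12.75 and 12.72 with control siRNA (difference −0.09 ± 0.06). COX7C, the subunit with the brightest probe set, had 13.54, 13.59 and 13.58 with ANRIL siRNA, against 13.60, 13.61 and 13.59 with control siRNA. Its groups were separate by a very small margin, and the difference was −0.03 ± 0.06. The 2 further COX7C probe sets, also bright, lay at 0.0094 ± 0.06 and −0.0031 ± 0.07, and there the groups overlapped. COX6B1 (−0.04), COX4I1 (−0.04), COX6A1 (−0.03), COX7B (−0.02) and COX5B (−0.0045) lay closer to 0 than NDUFA4, with overlapping groups. With NDUFA4 counted in complex I, as its older name has it, the medians of complexes I and IV were −0.08 and −0.03.

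The medians of the 4 complexes were −0.08, −0.05, −0.10 and −0.04 in order from I to IV. The median over a complex in a single array had an SD within groups of 0.06, 0.06, 0.05 and 0.04. Differences between means of 3 arrays vary less than single arrays, so this SD is not their standard error. Against genes of like brightness, the median departures were −0.0031, 0.03, −0.04 and 0.02. Subunits of 1 complex ranged from −0.18 to 0.01 in complex I, from −0.09 to −0.03 in complex II, from −0.22 to −0.02 in complex III and from −0.16 to −0.0045 in complex IV. Only NDUFB10, UQCRC1 and COX5A, 1 subunit each of complexes I, III and IV, lay lower than at least 90% of their genes of like brightness (9.6%, 5.2% and 7.8% of those genes lay lower still). These are 3 of 32 subunits, where by definition about 10% of genes of like brightness lie that low.

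**Figure D3:**
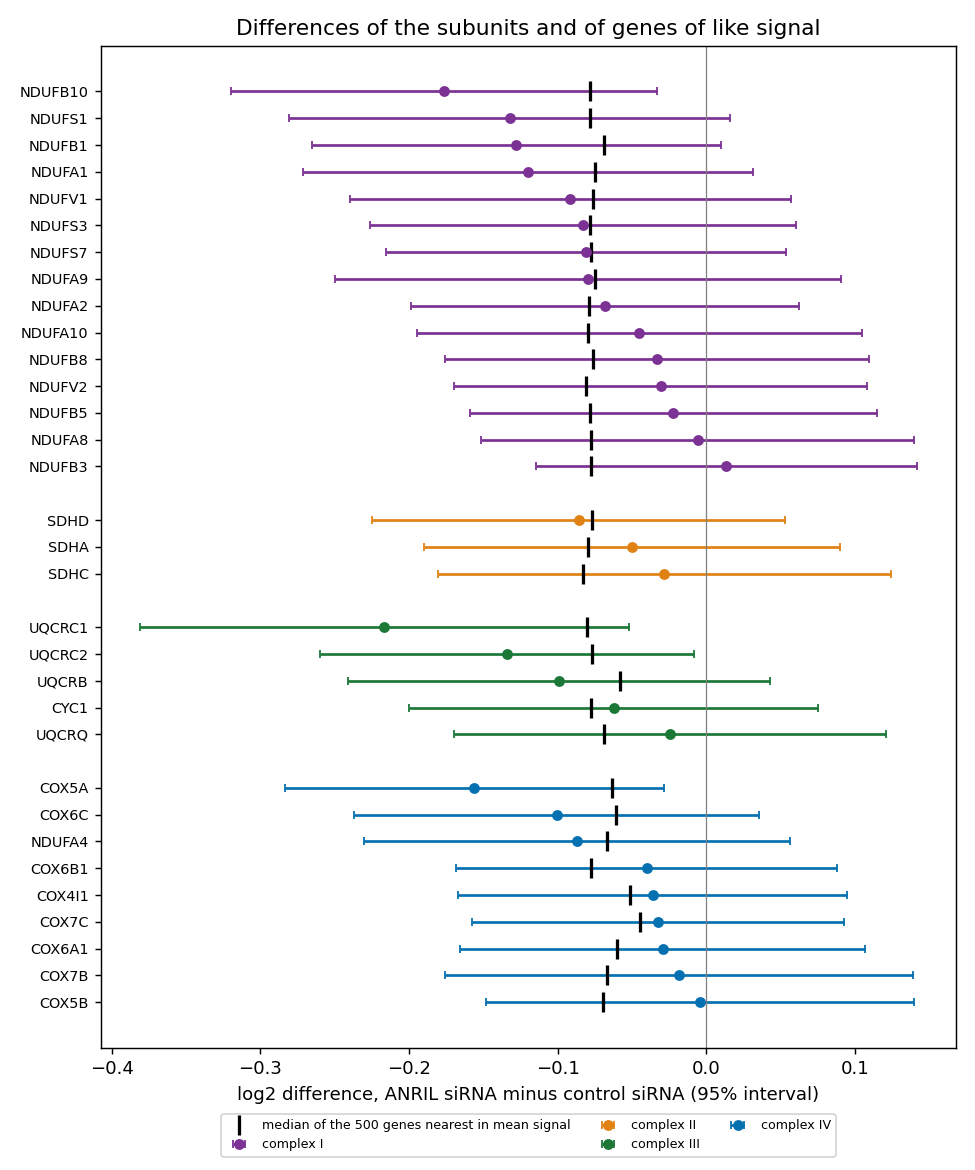
Log2 difference of each subunit (ANRIL siRNA minus control siRNA) with its 95% interval, coloured by complex; the black tick is the median of the 500 genes nearest in mean signal. The intervals of NDUFB10, UQCRC1, UQCRC2 and COX5A lie below 0, and each of the 32 intervals holds its black tick.

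Calls of single subunits depended on the prior and on the normalization. With an intensity-trended robust prior, which lets the expected variance fall with signal, NDUFB10, UQCRC1 and COX5A passed (adjusted p = 0.0461, 0.0483 and 0.0233, limma). These 3 are 9.38% of the 32, where that prior called 2.15% of all genes lower and 0.582% higher. It called 8.51% of the other genes of the brightest decile lower. After cyclic loess, which removes the dependence of differences on signal, the median over the 32 turned to 0.02 and 13 lay below 0. Of the other genes of the brightest decile 43.5% lay below 0 after cyclic loess (median 0.01). UQCRC1, NDUFB10 and COX5A were then at −0.13, −0.10 and −0.08, and 0 subunits passed with either prior.

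**Figure D4:**
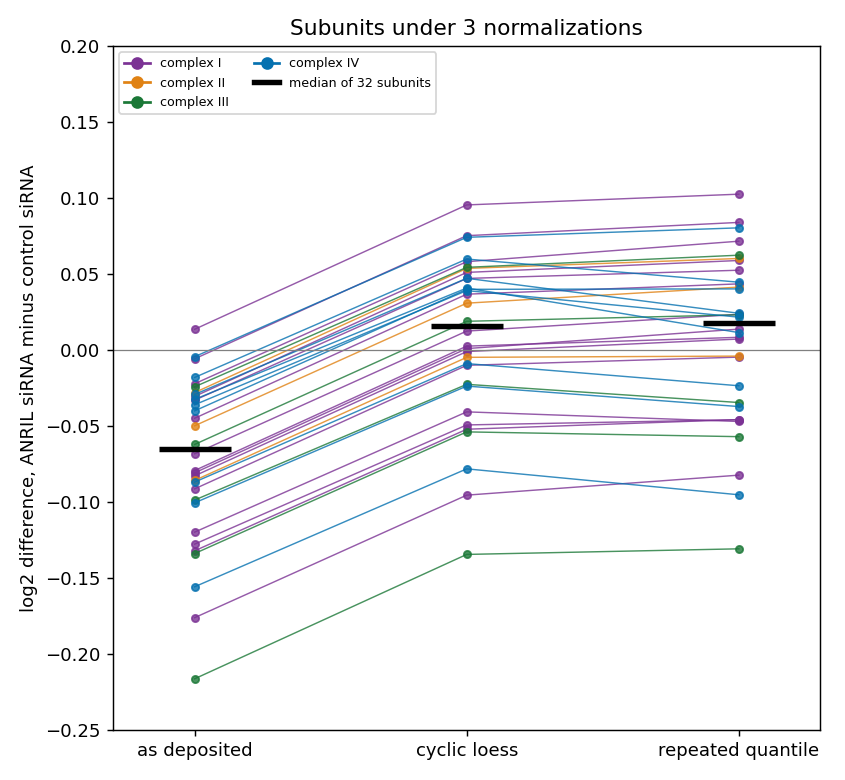
Log2 difference of each of the 32 subunits (lines coloured by complex) in the deposited values and in 2 renormalized versions, cyclic loess and repeated quantile, with the median as a black bar. The median is −0.07 as deposited and 0.02 in each renormalized version, and UQCRC1 stays the lowest of the 32.

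Probe sets of the same subunit differed with their own signal. Beside the brightest, 12 further probe sets of 8 subunits had a mean above log2 9, and 11 of these lay below 0 (median −0.07). The 27 dimmer ones, of 16 subunits, lay below 0 in 10 cases (median 0.03). NDUFA2 lay at −0.07 at its bright probe set and at 0.18 ± 0.07 at a dim one, SDHD at −0.09 and 0.23 ± 0.09, and NDUFS7 at −0.08 and 0.20 ± 0.10. None of these passed over all probe sets. With each subunit taken as the mean of its probe sets, the median over the 32 was −0.040. For 16 of the 32 subunits the chosen probe set ends in _s_at or _x_at, which marks probes shared with other transcripts, so signal of related copies cannot be told apart there. Without such probe sets, 21 of the 28 subunits still read lay below 0 (median −0.027). This rule also changed brightness, since dimmer probe sets took over for several subunits. The mean log2 signal fell from 11.58 to 5.88 for NDUFA2 and from 12.79 to 6.71 for COX5A. Sharing of probes and signal level were thus not separated.

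Promoter sequence was compared because nuclear respiratory genes are known to be regulated by NRF1, by the ETS factor GABP and by YY1. RefSeq windows of 300 bases (GRCh38.p14), 250 before to 50 after the gene start, were found for 31 of the 36 subunits, that is all except COX6C, CYC1, NDUFB5, SDHC and UQCRB. Both strands were searched for exact letters. The NRF1 core, GCGCA followed by any base and GCGC, was in 19.4% of the 31 windows and in 8.58% of the 15843 windows of protein-coding genes. CCGGAAGT, an ETS motif, was in 16.1% against 6.19%, and AAGATGGCG, a YY1 motif, in 12.9% against 2.74%. GGGCGG, the GC box, was in 61.3% against 58.5%, and TATAAA in 12.9% against 9.63%. CCAAT was less frequent among the subunits, in 25.8% against 36.4%. A match is a description of letters and not a binding site.

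The 9 measured subunits with an NRF1, ETS or YY1 match had a median difference of −0.08 (−0.22 to −0.0045), and the 18 with none had −0.06 (−0.18 to 0.01). The windows of the 3 subunits that lay lowest against genes of like brightness are shown to compare them, and that of SDHA because it holds the most NRF1 cores. Capitals mark NRF1 core, ETS and YY1 matches.
UQCRC1, chr3:48609597-48609896, minus strand: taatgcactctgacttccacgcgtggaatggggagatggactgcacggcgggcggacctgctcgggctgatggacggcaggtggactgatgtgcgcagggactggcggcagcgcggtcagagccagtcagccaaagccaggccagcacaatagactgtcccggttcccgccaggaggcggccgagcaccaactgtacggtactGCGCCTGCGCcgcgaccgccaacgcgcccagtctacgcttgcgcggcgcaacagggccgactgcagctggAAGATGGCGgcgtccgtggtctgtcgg
NDUFB10, chr16:1959288-1959587, plus strand: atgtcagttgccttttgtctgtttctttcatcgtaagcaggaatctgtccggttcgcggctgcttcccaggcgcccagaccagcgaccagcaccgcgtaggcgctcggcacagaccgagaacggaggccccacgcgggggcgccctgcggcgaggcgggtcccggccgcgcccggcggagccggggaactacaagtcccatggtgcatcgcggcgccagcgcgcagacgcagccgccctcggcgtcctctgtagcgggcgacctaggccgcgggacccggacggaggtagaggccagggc
COX5A, chr15:74938024-74938323, minus strand: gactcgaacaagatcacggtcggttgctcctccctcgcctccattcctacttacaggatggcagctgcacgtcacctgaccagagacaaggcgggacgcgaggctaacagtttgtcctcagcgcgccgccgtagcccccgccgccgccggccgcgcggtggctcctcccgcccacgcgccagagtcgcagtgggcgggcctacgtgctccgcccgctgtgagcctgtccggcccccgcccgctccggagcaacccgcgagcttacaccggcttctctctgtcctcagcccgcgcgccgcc
SDHA, chr5:218070-218369, plus strand: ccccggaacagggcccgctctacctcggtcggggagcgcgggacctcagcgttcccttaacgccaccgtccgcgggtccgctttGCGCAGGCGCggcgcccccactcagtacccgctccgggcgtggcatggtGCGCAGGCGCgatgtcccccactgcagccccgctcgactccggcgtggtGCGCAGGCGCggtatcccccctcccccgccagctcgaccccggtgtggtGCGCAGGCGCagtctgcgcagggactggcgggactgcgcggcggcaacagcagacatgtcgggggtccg
UQCRC1 holds an NRF1 core and, just after the gene start, a YY1 match, whereas NDUFB10 and COX5A hold none of the 3 motifs. SDHA holds 4 NRF1 cores spaced 49 bases apart, and its difference was −0.05.

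The rest of the pathway was read from fixed lists, and in each 0 genes passed in either direction with the constant prior. Of 18 further complex I subunits 15 lay below 0 (median −0.05). They were led by NDUFA7 (−0.17 ± 0.07) and NDUFA5 (−0.13 ± 0.06). Of 5 further subunits of complexes III and IV, among them COX7A2L, a factor of supercomplex assembly (−0.02), 4 lay below 0 (median −0.0072). Of 19 ATP synthase genes 15 lay below 0 (median −0.06), with ATP5PB, of the peripheral stalk, at −0.15 ± 0.06 and ATP5F1A, the alpha subunit of the F1 head, at 0.00. ATP5MF was represented by a dim probe set (0.20 ± 0.07).

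Assembly factors also lay mostly below 0. For complex I, 12 of 14 lay below 0 (median −0.04). For complexes II, III and IV, 22 of 31 did (median −0.07), and the copper chaperone COX11 had the largest difference, with log2 values of 10.52, 10.55 and 10.42 with ANRIL siRNA, against 10.80, 10.70 and 10.71 with control siRNA (−0.24 ± 0.06, adjusted p = 0.154, limma). UQCC2, at percentile 35.6 of all genes, was higher without overlap (0.18 ± 0.07, adjusted p = 0.219, limma). Of these 31, 4 were lower and 5 higher without overlap, where 12.8% of all genes were lower and 10.6% higher. Cytochrome c, CYCS, lay at 0.05 ± 0.06, and ETFA, which feeds electrons from fatty acid oxidation, at −0.16 ± 0.06. Among regulators, POLG, the mitochondrial DNA polymerase, lay at −0.27 ± 0.06 (adjusted p = 0.147, limma) and PPARGC1B, a coactivator of mitochondrial biogenesis, at 0.22 ± 0.07 (adjusted p = 0.17, limma). PPARGC1B was the dimmer of these, at percentile 43.2 of all genes against 82.2 for POLG. In the signal decile of PPARGC1B, 32.6% of genes lay below 0. Of the regulators 10 of 14 lay below 0 (median −0.06).

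The 15 measured genes of the citrate cycle and pyruvate dehydrogenase all lay below 0, with a median of −0.11 in the deposited values. SUCLG2, a succinyl-CoA ligase subunit, was lowest, at 10.02, 9.96 and 10.002 with ANRIL siRNA, against 10.28, 10.17 and 10.22 with control siRNA (−0.23 ± 0.06, adjusted p = 0.154, limma). After cyclic loess 12 of these 15 lay below 0 (median −0.03), while 5 of 18 further complex I subunits and 8 of 19 ATP synthase genes lay below 0. The share was 43.5% for the genes of the brightest decile other than the 32 subunits, and the median over all genes was 0.0087. Other lists also had genes below 0 after cyclic loess. These were 8 of 14 electron carriers and their feeders (median −0.02), 8 of 14 regulators (median −0.0029) and 15 of 31 assembly factors of complexes II to IV (median 0.0039). Of the tissue-restricted or inducible subunit isoforms 4 of 6 lay below 0 (median −0.08). Glycolysis genes lay below 0 in 13 of 16 cases (median −0.04), with PKM at −0.21 ± 0.07 and GPI at −0.20 ± 0.08, and in 5 of 16 after cyclic loess. As other bright housekeeping complexes, 12 of 13 proteasome core subunits (median −0.04), 74 of 77 mitochondrial ribosomal proteins (median −0.08) and 43 of 59 cytosolic ribosomal proteins (median −0.03) lay below 0. After cyclic loess these counts were 2 of 13, 38 of 77 and 6 of 59, and the medians were 0.03, 0.0039 and 0.03.

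**Figure D5:**
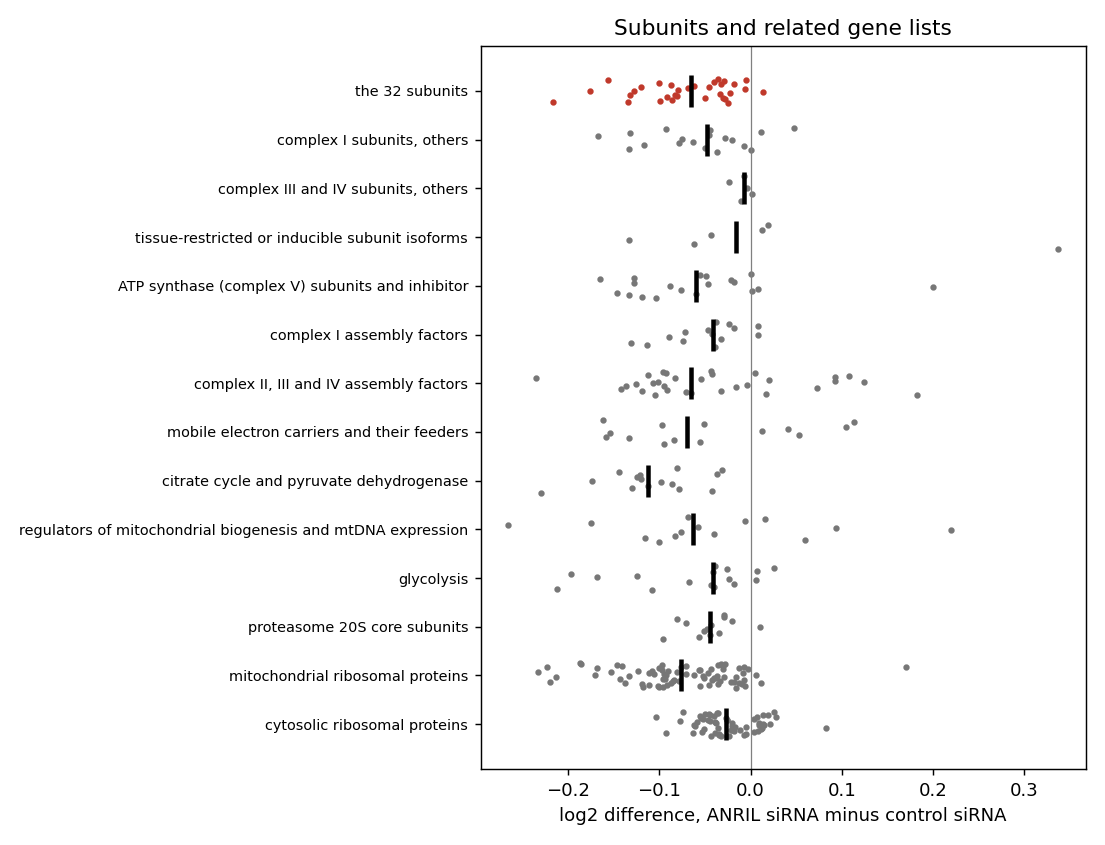
Log2 difference (ANRIL siRNA minus control siRNA) of each gene of the 32 subunits, in red, and of 13 related lists, in grey, with the median of each as a black bar. Medians lie between −0.11 for the citrate cycle and −0.0072 for the further subunits of complexes III and IV, and that of the 32 subunits is −0.07.

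Subunits encoded in mitochondrial DNA were looked up after the probe table had been seen. All 7 genes read lay below 0 (median −0.07) and none passed. ND2, of complex I, had log2 values of 12.60, 12.75 and 12.72 with ANRIL siRNA, against 13.02, 12.93 and 12.82 with control siRNA, with no overlap (−0.23 ± 0.07, adjusted p = 0.176, limma). ATP6, of ATP synthase, lay at −0.13 ± 0.06 and ND4 at −0.08 ± 0.06, while COX1 and COX2, of complex IV, lay at −0.02 and −0.03 near the top of the signal range. Nuclear copies of mitochondrial sequence can be read by such probe sets as well.

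Markers of other cells and of RNA quality moved beside these values. The 7 measured leukocyte markers lay above 0 in 6 cases (median 0.18, mean log2 level 5.71 to 5.89 with ANRIL siRNA and 5.64 to 5.72 with control siRNA). Smooth muscle and pericyte markers lay above 0 in 5 of 6 cases (6.42 to 6.52 with ANRIL siRNA and 6.30 to 6.44 with control siRNA). Fibroblast markers lay above 0 in 1 of 5 cases (6.66 to 6.69 with ANRIL siRNA and 6.67 to 6.71 with control siRNA) and epithelial markers in 3 of 5 (5.44 to 5.50 with ANRIL siRNA and 5.36 to 5.49 with control siRNA). In each of the 5 dimmest deciles of signal, 26.9% to 32.6% of all genes lay below 0. The 8 endothelial markers lay below 0, at a mean of 11.33 to 11.41 with ANRIL siRNA and 11.55 to 11.63 with control siRNA. The excess of 3′ over 5′ signal was 0.72 ± 0.13 with ANRIL siRNA and 0.54 ± 0.05 with control siRNA for ACTB (SD over 3 arrays, exact permutation test, two-sided p = 0.2, and no p below 0.1 can be reached). For GAPDH it was 0.05, 0.09 and 0.04 with ANRIL siRNA, against −0.01, 0.01 and −0.0063 with control siRNA, with no overlap (exact permutation p = 0.1). Their part in the subunits' differences was not tested, and less RNA per cell and fewer cells of a kind cannot be told apart in bulk samples.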

How the data were processed

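Expression was read on 6 arrays, 1 per transfected HUVEC sample, with 3 samples per siRNA. The deposited log2 intensities cover 54675 probe sets and came from RMA, with affy and limma also named, per the submitters' processing notes; no source used here states versions or filters. RMA corrects background, quantile-normalizes and summarises probes, so a change shared by most transcripts is not visible. Of these probe sets 62 controls were left out. Of the 54613 tested, 41091 had 1 gene symbol, 1801 several and 11721 were not listed; symbols were updated by Entrez identifier (41037 matched RefSeq, GRCh38.p14). For each of 19775 genes the probe set brightest on average across the 6 arrays was used.

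Differences came from limma 3.58.1 in R 4.3.3 (lmFit, eBayes), with a constant prior and Benjamini-Hochberg adjustment over all genes, two-sided. Other probe sets were fitted over all probe sets. The script was tested on simulated data. Replicate numbers were not used, since same-numbered arrays did not deviate together in every pair (r = 0.04, 0.18 and −0.02). Alternatives were a replicate block, another prior, array weights, 3 normalizations, a signal filter, 2 probe set rules and each array left out; cyclic loess with the trended prior was added after the data had been seen. Values in every array were given, per complex, for the 3 subunits of smallest p, the brightest and any against the sign of the complex median, and in each related list the 2 genes of smallest p and the brightest could be named. The subunits and lists were chosen with earlier results of these data known.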

Additional observations from a re-analysis of the deposited data

How the results depend on the processing

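The count of subunits passing was 0 in the deposited values and under each alternative except the intensity-trended robust prior, which called 3. With the replicate number as a block the median over subunits was −0.07 and 31 of 32 lay below 0. These could not change, because each number occurs once in each group. Only the p-values could, and no call changed. The numbers are shared only as labels. Same-numbered arrays deviated together weakly for replicate 2 (r = 0.18) and hardly for replicates 1 and 3 (r = 0.04 and −0.02). Whether they were paired is not known. The smallest adjusted p among subunits was 0.193, and over the other alternatives it ranged from 0.0233 with the trended robust prior to 0.45 without control siRNA replicate 2. Calls over all genes were 0 in the deposited values, 541 with the trended robust prior, 309 among genes above the median signal, 134 after cyclic loess with the trended robust prior and 32 with arrays centred on their medians.

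Direction depended on the normalization. After cyclic loess, with either prior, 13 of 32 subunits lay below 0 and the medians were 0.016 over all, 0.0024 for complex I, 0.031 for complex II, −0.023 for complex III and 0.040 for complex IV. After repeated quantile normalization 12 lay below 0, and these medians were 0.018, 0.014, 0.041, −0.035 and 0.021. With arrays centred on their medians all 32 lay below 0, including NDUFB3 at −0.037, with medians of −0.12 over all, −0.15 for complex III and −0.086 for complex IV; that centring moved the median of all genes to −0.05. With the mean of all probe sets 26 of 32 lay below 0, and the medians were −0.040 over all and −0.047 for complex III. With _s_at and _x_at probe sets left out 21 of 28 lay below 0, and the medians were −0.027 over all, −0.023 for complex I and −0.011 for complex IV.

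The subunits above 0 after cyclic loess, with either prior, were NDUFA2 (0.012), NDUFA8 (0.075), NDUFA9 (0.0024), NDUFA10 (0.037), NDUFB5 (0.058), NDUFB8 (0.047), NDUFS7 (0.00081), NDUFV2 (0.051), SDHA (0.031), SDHC (0.054), UQCRQ (0.054), CYC1 (0.019), COX4I1 (0.039), COX5B (0.074), COX6A1 (0.047), COX6B1 (0.040), COX7B (0.060) and COX7C (0.041), beside NDUFB3. After repeated quantile normalization they were NDUFA2 (0.023), NDUFA8 (0.084), NDUFA9 (0.0082), NDUFA10 (0.043), NDUFB5 (0.071), NDUFB8 (0.052), NDUFS3 (0.0071), NDUFS7 (0.014), NDUFV2 (0.059), SDHA (0.041), SDHC (0.060), UQCRQ (0.062), CYC1 (0.023), COX4I1 (0.021), COX5B (0.080), COX6A1 (0.024), COX6B1 (0.040), COX7B (0.045) and COX7C (0.011), beside NDUFB3. With the mean of all probe sets NDUFA2 (0.049), NDUFS7 (0.059), SDHD (0.074), COX4I1 (0.015) and COX6A1 (0.0081) turned above 0, and without _s_at and _x_at probe sets NDUFA2 (0.18), NDUFS1 (0.053), NDUFS7 (0.20), UQCRB (0.0090), COX4I1 (0.12), COX5A (0.030) and COX5B (0.030). The subunits turned by leaving out _s_at and _x_at probe sets were then each read by a dimmer probe set, with a mean below log2 9.

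With each array left out in turn, 25 to 32 subunits lay below 0 and the median over subunits ranged from −0.10 to −0.04. The sign of 10 subunits turned, with ranges of −0.059 to 0.0039 for NDUFV2, −0.080 to 0.0089 for UQCRQ, −0.057 to 0.028 for COX5B, −0.051 to 0.035 for NDUFA8, −0.062 to 0.011 for NDUFB5, −0.066 to 0.012 for NDUFB8, −0.067 to 0.0023 for COX6A1, −0.085 to 0.033 for COX7B, −0.0074 to 0.030 for NDUFB3 and −0.084 to 0.016 for SDHC. The cause of these reversals was not tested. Without ANRIL siRNA replicate 2 the median was −0.10, and without ANRIL siRNA replicate 3 it was −0.04.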

Other observations

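The 4 brightest SDHC probe sets fell into pairs. The 2 brightest, both ending in _x_at, differed by −0.03 ± 0.07 and −0.04 ± 0.07, while the next, both ending in _s_at, differed by −0.21 ± 0.06 (limma adjusted p = 0.231 over all probe sets, no overlap between groups) and −0.25 ± 0.09 (adjusted p = 0.271, limma, with overlap). Which SDHC transcripts each probe set reads was not analysed here. These probe sets were singled out after their values were seen.

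Among tissue-restricted and inducible isoforms, COX8C, a testis isoform of complex IV, had log2 values of 4.36, 4.38 and 4.11 with ANRIL siRNA, against 3.85, 4.10 and 3.89 with control siRNA, close to the floor of the array at percentile 6.18 of all genes (0.34 ± 0.09, adjusted p = 0.154, limma). COX7A1, the muscle isoform, had 7.94, 8.09 and 7.83 with ANRIL siRNA, against 7.97, 8.18 and 8.11 with control siRNA (−0.13 ± 0.08). None of the 6 isoforms measured passed.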
